A study of Mus musculus with 8 samples.

Results

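Dll1- tumor cells of PyMT-Dll1mCh mice were compared with Dll1- tumor cells of PyMT-Dll1GFP mice, in 4 of the 8 libraries of the series, 2 for each reporter line. The libraries were chosen by their labels, with the reporter mCherry or GFP and the Dll1- gate, and every gene that passed a filter on low counts entered the comparison. All mice carried the MMTV-PyMT transgene, in which the mammary tumor virus promoter drives the polyoma middle T oncogene in mammary epithelium and gives luminal-like tumors, and the mice were on a C57BL/6 background. In PyMT-Dll1GFP mice GFP was knocked in at the Dll1 gene, and in PyMT-Dll1mCh mice mCherry was carried on a bacterial artificial chromosome (BAC), a long cloned piece of genomic DNA, whose extent and insertion site are not given in the sources used here. Tumors were digested with collagenase and hyaluronidase, cells positive for CD45, CD31 or TER119 were removed, and the reporter-negative cells were taken as Dll1-. The 4 libraries came from 4 different mice, with age and day of the sort not given, so reporter construct, mouse line and any processing batch cannot be told apart, and p-values rest on the spread between 2 mice a line. Values are in CPM, a gene's counts brought to a common library size with edgeR's TMM factors, and are given for mouse 1 and then mouse 2 of a line.

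Dll1 is a ligand of the Notch pathway: it sits on the surface of one cell and activates Notch receptors of a neighboring cell, whose cleaved intracellular part binds Rbpj and switches on targets such as the Hes and Hey genes. In the mammary gland Dll1 is known as a gene of the basal layer, which surrounds the luminal cells that make milk. A gate on reporter and lineage markers can still hold cells that carry none of the markers removed, such as fibroblasts and pericytes, the contractile cells that wrap small vessels.

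The PyMT-Dll1GFP libraries held 28249579 and 27301396 counts and the PyMT-Dll1mCh libraries 123907626 and 31183156, so PyMT-Dll1mCh mouse 1 was sequenced several times deeper than the others. The floor of 3 counts corresponded to 0.0242 to 0.110 CPM. Over the tested genes, log2 CPM correlated with a Pearson coefficient of 0.982 between the PyMT-Dll1GFP mice, 0.972 between the PyMT-Dll1mCh mice and 0.900 to 0.928 between the lines, where genes are not independent replicates. The epithelial markers were high throughout: Epcam, a cell adhesion protein, stood at 938 and 1008 CPM in PyMT-Dll1GFP and 977 and 911 CPM in PyMT-Dll1mCh libraries. Its log2 fold change was -0.04 (SE 0.13, adjusted p = 0.820), with overlapping groups. Krt8 and Krt18, keratins of luminal cells, likewise stood at 1082 CPM or more in every library. The surface markers Cd24a and Itgb1 had log2 fold changes of -0.44 (adjusted p = 0.0751) and 0.22 (adjusted p = 0.335) that did not pass. With library offsets fitted to exon length, the length adjustment given further on, Cd24a did pass (-0.59, adjusted p = 0.0385).

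Of 18018 genes tested, 5102 (28.3%) differed between the lines at an adjusted p under 0.05, with 2608 (14.5%) higher and 2494 (13.8%) lower in PyMT-Dll1mCh cells, and all 5102 had groups that did not overlap, as had 12953 of the 18018 genes tested. Genes above and below the PyMT-Dll1GFP level were thus alike in number, but not in size. More than 8-fold differences were called for 587 higher and 85 lower genes, and the median log2 fold change of the called genes was 1.76 for those higher and -0.96 for those lower, against 0.01 over all genes tested. A test against a fold change of 1.5 in place of 0 called 1349 genes, 787 higher and 562 lower. Between the 2 mice of one line, 5.62% of genes differed by more than 2-fold in PyMT-Dll1GFP and 11.9% in PyMT-Dll1mCh libraries. The call rests on every PyMT-Dll1GFP library: without PyMT-Dll1GFP mouse 1 or without mouse 2, 0 genes were called by edgeR, with 4253 and 4429 at an unadjusted p under 0.05. Without PyMT-Dll1mCh mouse 1 the count was 6718, and without mouse 2 it was 7670.

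**Figure D1:**
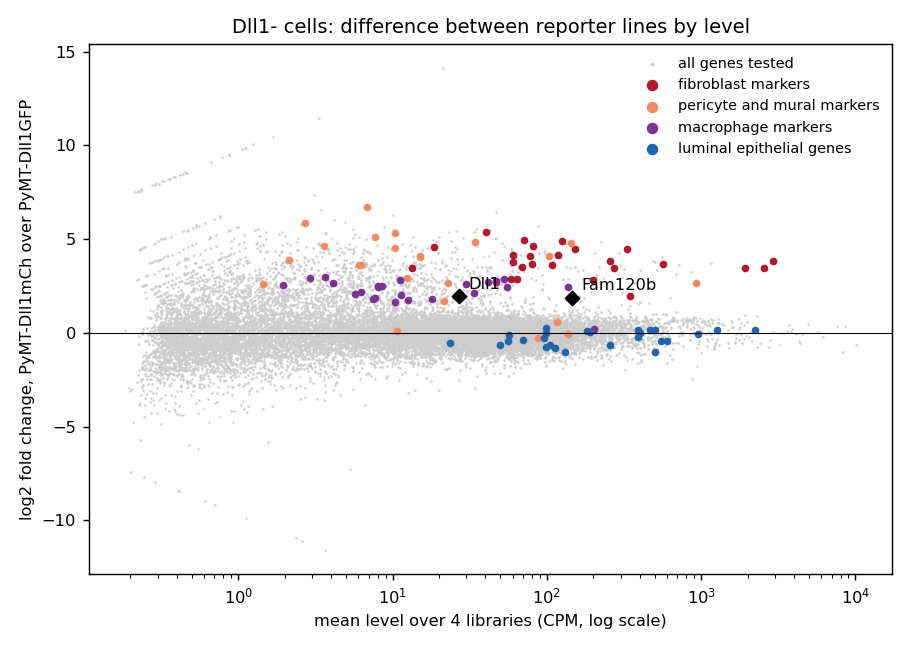
Mean level over the 4 Dll1- libraries (CPM, log axis) against the log2 fold change of PyMT-Dll1mCh over PyMT-Dll1GFP, 1 point a gene for the 18018 genes tested, with marker lists in color and Dll1 and Fam120b as black diamonds. Fibroblast, pericyte and macrophage markers lay mostly above 0, with list medians of 3.73, 3.91 and 2.46, while luminal epithelial genes lay around 0, with a median of -0.23.

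Dll1 itself was read at 7.77 and 14.1 CPM in the PyMT-Dll1GFP libraries and at 35.2 and 51.0 CPM in the PyMT-Dll1mCh libraries. Both PyMT-Dll1mCh values were above both PyMT-Dll1GFP values, and the level was 3.94-fold higher in PyMT-Dll1mCh cells (log2 fold change 1.98, SE 0.36, adjusted p = 0.0249). In the Dll1+ libraries of the same mice the difference between lines was smaller by 1.03 on the log2 scale, which did not pass the test (SE 0.14, adjusted p = 0.0613). Without 1 PyMT-Dll1GFP library the adjusted p was 0.15 without mouse 1 and 0.147 without mouse 2. A930024N18Rik, a long noncoding RNA that overlaps Dll1 on the other strand, had a value of 1.90 on the log2 scale (SE 0.52, adjusted p = 0.0547) at 0.174 to 1.11 CPM, and how far reads of the 2 were kept apart by strand is not given.

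Fam120b, the next annotated gene after Dll1, 19.3 kb away on chromosome 17 (GRCm38), was higher too. Fam120b encodes a coactivator of nuclear receptors. It stood at 59.8 and 65.0 CPM in PyMT-Dll1GFP and at 237 and 222 CPM in PyMT-Dll1mCh libraries, a 3.67-fold higher level (log2 fold change 1.88, SE 0.11, adjusted p = 0.0151). The mice of a line lay close together, with a wide gap between the lines. In the Dll1+ libraries the gap was of like size, with a difference of 0.10 between the 2 log2 fold changes (SE 0.13, adjusted p = 0.850). Next along the chromosome, the proteasome subunit gene Psmb1 (log2 fold change 0.45, adjusted p = 0.067) and Pdcd2 (log2 fold change 0.49, adjusted p = 0.0679) did not pass, and neither did Tbp, the TATA-box binding protein gene, at -0.25 (adjusted p = 0.22). Of 34 annotated genes within 500 kb of Dll1, 17 were tested and 6 called, where the background of 28.3% of all genes applies: Dll1 and Fam120b higher, and Chd1, Ermard, Prdm9 and 9030025P20Rik lower. Those 4 lay 166 kb or more from Dll1, with log2 fold changes from -0.52 for the chromatin remodeler gene Chd1 to -1.46 for 9030025P20Rik. With library offsets fitted to exon length, the length adjustment given further on, Chd1 (-0.20, adjusted p = 0.267) and Ermard (-0.35, adjusted p = 0.146) did not pass.

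**Figure D2:**
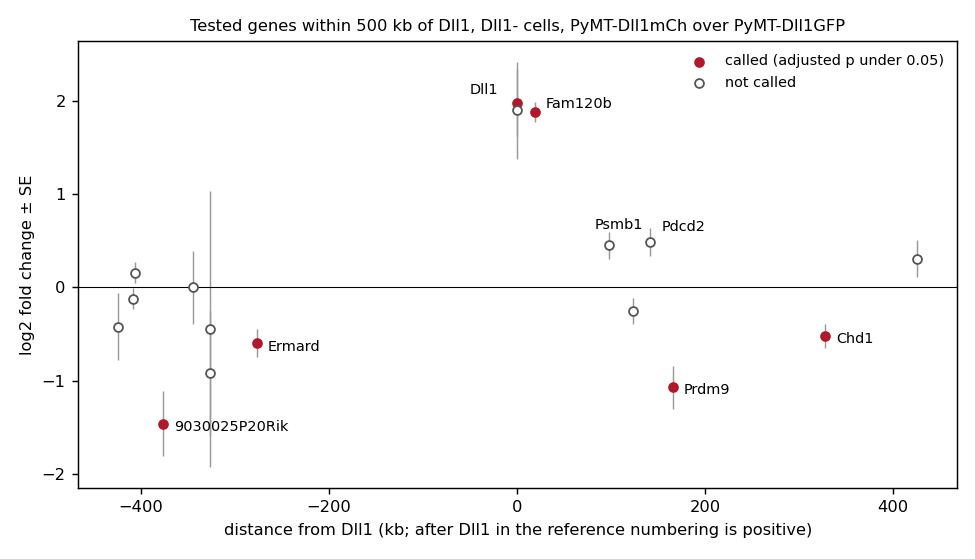
Distance from Dll1 (kb) against the log2 fold change of PyMT-Dll1mCh over PyMT-Dll1GFP in Dll1- cells, with SE bars, for the 17 tested genes within 500 kb, called genes filled. Dll1 and Fam120b, at 1.98 and 1.88, stood above all other genes of the window except the noncoding A930024N18Rik at 1.90, which was not called.

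Among the Notch pathway genes, 33 of 35 were tested, 5 were higher and 7 lower in PyMT-Dll1mCh cells, and the median log2 fold change was 0.10. The share higher was near the 14.5% over all genes, while the share lower was above the 13.8% over all genes. Notch1 stood at 300 and 347 CPM in PyMT-Dll1GFP and at 129 and 131 CPM in PyMT-Dll1mCh libraries, well apart, with a change of -1.31 on the log2 scale (SE 0.12, adjusted p = 0.0152). Notch2 was lower by a log2 fold change of -0.72 (adjusted p = 0.0459), and Notch3, at 130 to 148 CPM, had a value of -0.06 (adjusted p = 0.733). Mib1, the ubiquitin ligase that makes Notch ligands active, was read at 122 and 124.1 against 65.6 and 65.7 CPM (log2 fold change -0.90, adjusted p = 0.0152). Numb, an inhibitor of Notch receptors, was lower by a log2 fold change of -0.71 (adjusted p = 0.0199), while its relative Numbl was higher by 1.69 (adjusted p = 0.0297). The coactivators Maml2 and Maml3 and the receptor-cleaving protease Adam10 made up the other lower members, at -0.88, -0.78 and -0.52.

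The targets of Notch were split. Heyl, a target known from vessel-associated smooth muscle, stood at 1.57 and 1.74 CPM in PyMT-Dll1GFP and at 23 and 33.8 CPM in PyMT-Dll1mCh libraries, a 17.1-fold difference (log2 fold change 4.10, SE 0.27, adjusted p = 0.0151). Nrarp, a target that dampens Notch signals, was higher by a log2 fold change of 1.25 (adjusted p = 0.0309). Hes1 had a value of -0.45 (adjusted p = 0.0588) and Hey1 of -0.24 (adjusted p = 0.606). The glycosyltransferase gene Mfng was the remaining higher member at 2.75, and the ligands Jag1, Jag2 and Dll4 had values of 0.88, 0.29 and 1.29 that did not pass. With the length adjustment the values were -0.76 for Notch1 and -0.48 for Mib1 (adjusted p = 0.0307 and 0.0351), and 4 higher and 4 lower members in all.

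Of 26 luminal epithelial genes 0 were higher and 5 lower, with a median of -0.23, against the background of 14.5% higher and 13.8% lower. With the length adjustment 0 were higher and 4 lower. Ehf, an epithelial Ets factor, was read at 716 and 641 CPM in PyMT-Dll1GFP and 360 and 302 CPM in PyMT-Dll1mCh libraries (log2 fold change -1.03, SE 0.15, adjusted p = 0.0187). Muc1, a membrane mucin of the apical side, went from 195 and 155 to 89.3 and 82.8 CPM (log2 fold change -1.03, SE 0.15, adjusted p = 0.0189). For both genes the lines did not overlap and the values of the PyMT-Dll1mCh mice were about a factor of 2 lower. In the luminal progenitor list 3 of 16 genes were lower and 0 higher, among them Kit, a receptor tyrosine kinase, at 285 and 259 against 91.2 and 139 CPM (log2 fold change -1.24, SE 0.23, adjusted p = 0.0252). With the length adjustment 2 of the 16 were lower and Kit did not pass (-0.91, adjusted p = 0.0517).

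Hormone-sensing genes had 2 of 18 higher and 3 lower, and milk genes 1 of 19 higher and 3 lower, against 14.5% higher and 13.8% lower over all genes. Prlr, the prolactin receptor, was at 170 and 152 CPM against 60.1 and 66.4 CPM (log2 fold change -1.35, SE 0.12, adjusted p = 0.0152). The luminal transcription factor gene Gata3 was lower, at -0.94 on the log2 scale (SE 0.21, adjusted p = 0.0342) and the estrogen receptor cofactor gene Foxa1 by -0.96 (SE 0.24, adjusted p = 0.0431). Tnfsf11, which encodes RANKL, was near the floor in PyMT-Dll1GFP libraries at 0.0697 and 0.0711 CPM and uneven in PyMT-Dll1mCh libraries at 5.03 and 0.837 CPM. Of the milk genes, Muc15, a mucin of the milk fat globule, went from 499 and 518 to 129 and 130 CPM (log2 fold change -1.97, SE 0.11, adjusted p = 0.0151), and Ltf, lactoferrin, from 925 and 823 to 288 and 482 CPM (log2 fold change -1.18, SE 0.28, adjusted p = 0.0383). With the length adjustment Foxa1 (adjusted p = 0.0588) and Ltf (adjusted p = 0.0568) did not pass.

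The basal and myoepithelial list held both directions, with 9 of 30 genes higher and 5 lower, against 14.5% and 13.8% over all genes. With the length adjustment 9 were higher and 1 lower. The summed level of the list was nonetheless lower, at 13120 and 11730 CPM in PyMT-Dll1GFP and 6523 and 8732 CPM in PyMT-Dll1mCh Dll1- libraries. The higher members were Acta2, Actg2, Cnn1, Myh11, Mylk and Tagln, all of the contractile apparatus, and Col17a1, Ngfr and Pdpn. Acta2, smooth muscle actin, stood at 16.3 and 12.5 CPM in PyMT-Dll1GFP and 193 and 216 CPM in PyMT-Dll1mCh libraries, a 14.2-fold difference (log2 fold change 3.83, SE 0.18, adjusted p = 0.0151). Myh11, smooth muscle myosin, was 12.4-fold and Tagln, an actin-binding protein, 12.1-fold higher, both at an adjusted p of 0.0151. Pericytes and fibroblasts of tumors are also known to express these contractile genes. The lower members were Trp63, Dst, Igfbp5, Itgb4 and Itga6. Trp63, the p63 transcription factor of basal cells, was at 30.8 and 31.5 against 8.05 and 12.7 CPM (log2 fold change -1.60, SE 0.25, adjusted p = 0.0203), and the integrin genes Itgb4 and Itga6 were lower by -0.59 and -0.57 (adjusted p = 0.0222 and 0.0363). The basal keratin genes Krt5 and Krt14 had log2 fold changes of 1.40 and 0.37 that did not pass (adjusted p = 0.0677 and 0.701), with Krt14 at 37.0 and 151 CPM in the PyMT-Dll1mCh mice on either side of the PyMT-Dll1GFP values.

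Stromal genes differed by more, in lists chosen with earlier results of these data known. All 26 fibroblast markers were higher in PyMT-Dll1mCh cells, against 14.5% over all genes. Their median log2 fold change was 3.73, with a range from 1.96 to 5.39. Thy1, a surface marker of fibroblasts, stood at 6.51 and 5.87 CPM in PyMT-Dll1GFP and at 103 and 209 CPM in PyMT-Dll1mCh libraries, 25.1-fold higher (log2 fold change 4.65, SE 0.41, adjusted p = 0.0152). Dcn, the matrix proteoglycan decorin, was at 25.9 and 30.8 against 288 and 970 CPM (log2 fold change 4.47, adjusted p = 0.0195), and Pdgfra, a growth factor receptor that defines fibroblasts, at 15.1 and 13.1 against 50.8 and 156 CPM (log2 fold change 2.87, adjusted p = 0.0300). In each of these the PyMT-Dll1mCh mouse 2 value was the highest, and mouse 1 was still above both PyMT-Dll1GFP mice. The summed level of the list was 1467 and 1735 CPM in PyMT-Dll1GFP and 10120 and 28730 CPM in PyMT-Dll1mCh Dll1- libraries, so that the 2 PyMT-Dll1mCh mice differed from each other too, with a median log2 difference of 1.57 over the list. Without PyMT-Dll1mCh mouse 2, 24 of the 26 were called, and without any filter on low counts 1 was. In bulk libraries, more cells of a type and more RNA per cell cannot be told apart.

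Matrix genes followed. Of 48 collagen and matrix genes 35 were higher and 0 lower, with a median of 3.07. Col1a1, a chain of the fibrillar collagen I, was at 415 and 428 CPM against 2629 and 6672 CPM (log2 fold change 3.46, SE 0.50, adjusted p = 0.0190), and Col4a2, a chain of basement membrane collagen, at 91.7 and 91.2 against 646 and 1237 CPM (log2 fold change 3.36, SE 0.36, adjusted p = 0.0153). Among 23 matrix proteases and inhibitors 14 were higher and 1, Mmp15, lower (13 and 0 with the length adjustment), with Mmp2, a gelatinase, at 32.5 and 35.4 against 277 and 677 CPM (log2 fold change 3.81, SE 0.48, adjusted p = 0.0168). The list of genes tied to epithelial-mesenchymal transition had 15 of 27 higher and 2 lower. Its higher members Vim, Zeb1, Axl and Cdh11 are also known in fibroblasts, and Vim, an intermediate filament, was at 59.0 and 71.1 against 497 and 1336 CPM (log2 fold change 3.82, SE 0.54, adjusted p = 0.0187), again with mouse 2 above mouse 1.

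Pericyte and mural genes were higher for 19 of 23, against 14.5% over all genes, with a median of 3.91. They differed less between the PyMT-Dll1mCh mice than the fibroblast list, with a median log2 difference of 0.39. Rgs5, a G protein regulator that marks pericytes, stood at 12.3 and 7.68 CPM in PyMT-Dll1GFP and 253 and 298 CPM in PyMT-Dll1mCh libraries, 27.6-fold higher (log2 fold change 4.79, SE 0.28, adjusted p = 0.0151). Pdgfrb, the receptor that recruits pericytes, was at 11.9 and 10.8 against 151 and 237 CPM (log2 fold change 4.09, SE 0.27, adjusted p = 0.0151). The channel genes Kcnj8 and Abcc9, which pericytes express together, were higher by 2.94 and 2.64 (adjusted p = 0.0151 and 0.0152). Steap4, Notch3, Mcam and Lmod1 did not pass, at -0.29, -0.06, 0.60 and 0.10.

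**Figure D3:**
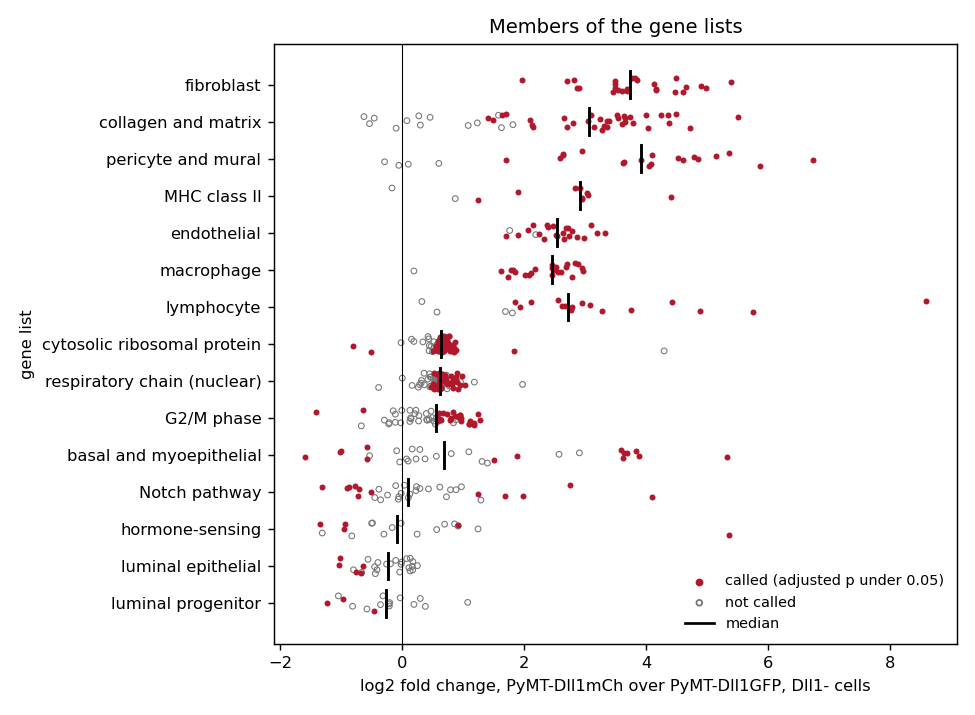
Log2 fold change of PyMT-Dll1mCh over PyMT-Dll1GFP in Dll1- cells for the tested members of 15 gene lists, 1 point a gene, filled where called, with a bar at each median. Fibroblast, matrix, pericyte, MHC class II, endothelial, macrophage and lymphocyte lists had medians between 2.46 and 3.91, the ribosomal and respiratory chain lists clustered at 0.64 and 0.63, and the luminal lists had medians of -0.23 and -0.27.

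Markers of the cells that the sort was meant to remove were higher as well. Ptprc, the gene of CD45, stood at 3.69 and 2.95 CPM in PyMT-Dll1GFP and 10.5 and 12.9 CPM in PyMT-Dll1mCh libraries, 3.52-fold higher (log2 fold change 1.82, SE 0.24, adjusted p = 0.0173). Pecam1, the gene of CD31, was at 14.0 and 14.3 against 43.2 and 99.5 CPM, 5.03-fold higher (log2 fold change 2.33, SE 0.43, adjusted p = 0.0255). Both levels were far under that of Epcam in all 4 libraries. Endothelial markers were higher for 22 of 24 genes, against 14.5% over all genes, with a median of 2.54. Emcn, an endothelial sialomucin, was at 3.07 and 2.95 against 15.8 and 35.9 CPM (log2 fold change 3.10, SE 0.46, adjusted p = 0.0193). Macrophage markers were higher for 23 of 24, with a median of 2.46, the exception being Cd14 at 0.19. C1qb, a chain of complement C1q made by macrophages, was at 13.3 and 10.6 against 85.6 and 78.2 CPM (log2 fold change 2.78, SE 0.16, adjusted p = 0.0151), and Lyz2, lysozyme, at 47.3 and 37.4 against 223 and 244 CPM (log2 fold change 2.46, SE 0.16, adjusted p = 0.0151). Unlike the fibroblast list, the macrophage list was level between the PyMT-Dll1mCh mice, with a median log2 difference of 0.03.

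Rarer cells followed at low levels, to be read against 14.5% higher and 13.8% lower over all genes. Of 20 lymphocyte markers tested 16 were higher and 0 lower, and the list summed to 7.34 and 5.53 CPM in PyMT-Dll1GFP and 31.4 and 37.0 CPM in PyMT-Dll1mCh Dll1- libraries. Of 7 erythroid and platelet genes tested 5 were higher, with the globin gene Hbb-bs at 1.78 and 4.98 against 70.4 and 34.9 CPM. Adipocyte markers were higher for 5 of 9 tested, but the adipocyte-defining Adipoq and Plin1 did not pass the filter on low counts. Skeletal muscle genes were called for 0 of 7 by edgeR, with 2 at an unadjusted p under 0.05, and Schwann and neural genes for 2 higher and 2 lower of 9. Sox10, a factor of Schwann cells that mammary tumors also express, was high in all libraries at 339 to 540 CPM (log2 fold change -0.36, adjusted p = 0.199).

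MHC class II genes, which antigen-presenting cells use to show peptides to T cells, were higher for 9 of 11 tested, against 14.5% over all genes. Cd74, the invariant chain, stood at 50.02 and 56.04 CPM in PyMT-Dll1GFP and 418 and 403 CPM in PyMT-Dll1mCh libraries, 7.74-fold higher (log2 fold change 2.95, SE 0.12, adjusted p = 0.0151). H2-Aa was at 18.9 and 18.2 against 141 and 138 CPM (log2 fold change 2.91, SE 0.10, adjusted p = 0.0151), and H2-Eb1 at 7.35 and 8.78 against 70.6 and 60.8 CPM (log2 fold change 3.03, SE 0.16, adjusted p = 0.0151). The mice of a line were nearly alike. Ciita, the coactivator that turns these genes on, was among the 2 that did not pass, at 8.60 and 8.21 against 7.73 and 7.20 CPM (log2 fold change -0.17, adjusted p = 0.526). The H2-Oa gene rested on 3 counts in PyMT-Dll1GFP and 73 in PyMT-Dll1mCh libraries, a ratio of 9.04 with a 95% counting interval from 2.97 to 44.8. MHC class I genes differed in 4 of 21, all higher, a share near the 14.5% called higher over all genes. Among the 4 was B2m, the light chain, at 212 and 182 against 526 and 425 CPM (log2 fold change 1.27, SE 0.16, adjusted p = 0.0168).

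The promoters of MHC class II genes share a Y box, a CCAAT-type element bound by the factor NF-Y, near the transcription start, and they are shown because these genes moved together. RefSeq promoters, 250 bases before to 50 after a start on GRCm38.p6, were at hand for 8 of the 12 genes of the list. The letters CTGATTGG, searched on both strands, were found in 4 of them, against 4.7% of the 27025 genes of the table. The letters were picked as a known element of these genes, so that share is no test of these data. The capitals mark these letters, and each line shows 70 bases of the gene's own strand, at chr17:34287857-34287926 (minus strand) for H2-Aa, chr17:34305753-34305822 (plus strand) for H2-Eb1 and chr17:34092281-34092350 (plus strand) for H2-Oa.
H2-Aa: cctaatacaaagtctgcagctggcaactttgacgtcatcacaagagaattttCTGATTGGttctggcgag
H2-Eb1: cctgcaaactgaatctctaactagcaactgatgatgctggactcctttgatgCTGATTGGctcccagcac
H2-Oa: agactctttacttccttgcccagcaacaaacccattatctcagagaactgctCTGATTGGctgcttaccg
The letters began 51, 62 and 46 bases before the start of H2-Aa, H2-Eb1 and H2-Oa. The fourth gene, H2-Eb2, was not tested, and a match of letters is a description of the sequence, not of binding.

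The same lists were read in the Dll1+ libraries of the same mice. The fibroblast list summed to 1445 and 1617 CPM in PyMT-Dll1GFP and 4312 and 4542 CPM in PyMT-Dll1mCh Dll1+ libraries, so the line with the higher level was the same, with a smaller gap than in Dll1- cells. The MHC class II list summed to 107 and 116 CPM in PyMT-Dll1GFP and 786 and 741 CPM in PyMT-Dll1mCh Dll1- libraries, and to 112 and 126 against 409 and 326 CPM in the Dll1+ libraries. The luminal epithelial list lay at 9093 to 12750 CPM over all 8.

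**Figure D4:**
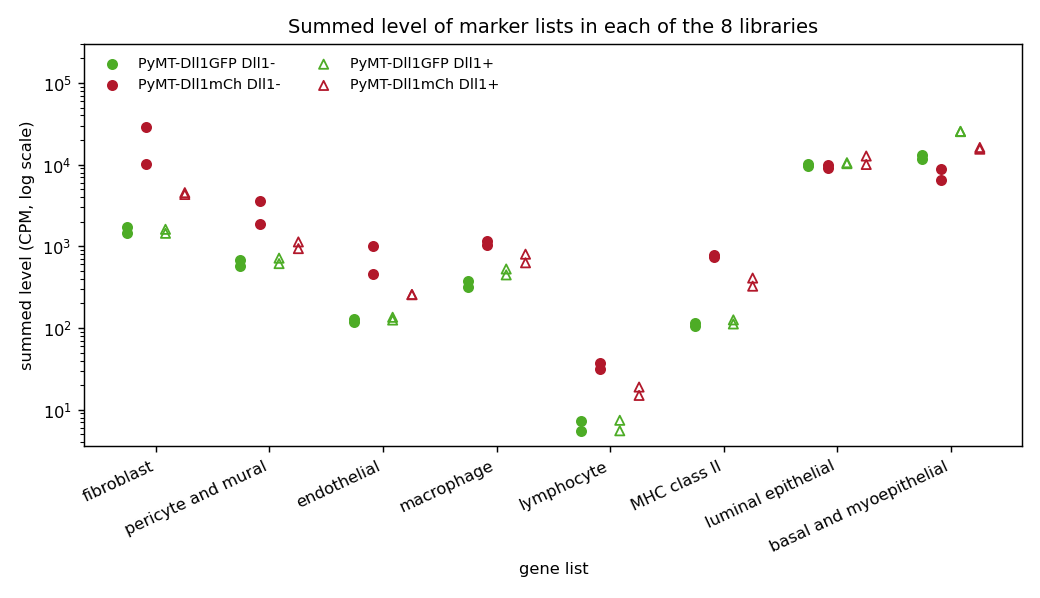
Summed level (CPM, log axis) of 8 gene lists in each of the 8 libraries, 1 point a library, circles for Dll1- and triangles for Dll1+ cells, green for PyMT-Dll1GFP and red for PyMT-Dll1mCh. In the stromal and immune lists the PyMT-Dll1mCh Dll1- circles were highest and the PyMT-Dll1GFP values lowest, as for macrophages at 1029 and 1174 against 372 and 314 CPM.

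Whether the difference between lines was itself different in Dll1- and Dll1+ cells was tested within mice over all 8 libraries. It was for 45 of 19843 genes (0.227%), 39 with a larger and 6 with a smaller value of PyMT-Dll1mCh over PyMT-Dll1GFP in Dll1- than in Dll1+ cells, and 2453 genes had an unadjusted p under 0.05. Of the pericyte list 7 of 23 were among the 39, and of the macrophage list 6 of 24. Rgs5 was at 256 and 295 CPM in Dll1- but 34.5 and 34.8 CPM in Dll1+ cells of PyMT-Dll1mCh mice, while all 4 PyMT-Dll1GFP libraries lay at 7.46 to 11.9 CPM, and the difference of the differences was 3.14 (SE 0.18, adjusted p = 0.0151). Abcc9, a potassium channel subunit, was at 34.6 and 44.5 CPM in Dll1- but 8.56 and 7.80 CPM in Dll1+ cells of PyMT-Dll1mCh mice, against 6.63 and 5.70 and then 8.98 and 8.90 CPM in PyMT-Dll1GFP mice (2.80, SE 0.22, adjusted p = 0.0271). Among those smaller in Dll1- cells, the phosphodiesterase gene Pde2a had a value of -2.82 (SE 0.27, adjusted p = 0.0439) and Itgb8, an integrin that activates TGF-beta, of -1.05 (SE 0.12, adjusted p = 0.0480). The fibroblast list, with a median of 2.08, had 0 of 26 called. The count changed widely with the setting: 13 genes with RLE size factors, 547 with DESeq2 and 0 without the mouse block by edgeR, where 1387 genes had an unadjusted p under 0.05.

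Housekeeping groups shifted by smaller amounts, with counts to be read against 14.5% higher and 13.8% lower over all genes. Of 75 cytosolic ribosomal protein genes 55 were higher and 2, Rpl35a and Rpl10, lower, with a median of 0.64. Rps2 stood at 279 and 269 CPM in PyMT-Dll1GFP and 1029 and 930 CPM in PyMT-Dll1mCh libraries (log2 fold change 1.84, SE 0.13, adjusted p = 0.0151), and Rpl27 at 88.7 and 85.9 against 142 and 136 CPM (log2 fold change 0.67, SE 0.10, adjusted p = 0.0190). Of 80 nuclear genes of the respiratory chain 46 were higher and 0 lower, with a median of 0.63, and Cox8a, a subunit of cytochrome c oxidase, was at 125 and 120 against 245 and 211 CPM (log2 fold change 0.89, SE 0.12, adjusted p = 0.0177). The 13 chain genes encoded in the mitochondrion had 0 higher and 1 lower, mt-Nd4l. With the replicate number as a block, 36 ribosomal and 27 respiratory chain genes were higher, and with total counts alone 36 and 25.

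These 2 groups have short transcripts, and the difference between lines moved with length across all protein-coding genes. From the shortest to the longest of 10 exon-length bins the median log2 fold change went from 0.56 to -0.45, the share called higher from 32.7% to 7.91% and the share called lower from 1.02% to 39.9%. The Dll1+ libraries of the same lines had the same slope, from 0.55 to -0.40, while between the 2 mice of a line the medians stayed within -0.13 and 0.12. With library offsets fitted to exon length, 3672 genes (20.4%) were called, 2213 (12.3%) higher and 1459 (8.10%) lower, and the ribosomal and respiratory chain counts were 20 and 19. Fibroblast, pericyte, endothelial and macrophage counts were then 25, 19, 19 and 22. The offsets left part of the trend, with a median of 0.33 in the shortest bin and 0.04 in the longest. Ribosomal and respiratory chain lists had medians of 0.47 and 0.46 with the offsets. The difference between lines also moved with GC content, the percent of G and C bases in a gene's longest transcript. From the lowest to the highest of 10 GC bins the median log2 fold change went from -0.36 to 0.34. The share called higher went from 7.09% to 25.3% and the share called lower from 28.4% to 3.68%. With the length offsets the median still went from -0.19 to 0.27. Counts of olfactory and vomeronasal receptor genes, not known from mammary tissue, summed to 344 and 310 CPM (unscaled) in PyMT-Dll1GFP and 170 and 159 CPM in PyMT-Dll1mCh libraries. The share of counts on processed pseudogenes was 2.51% and 2.76% against 3.87% and 3.43%. The part of length, GC content, library preparation or RNA quality in any result was not tested.

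**Figure D5:**
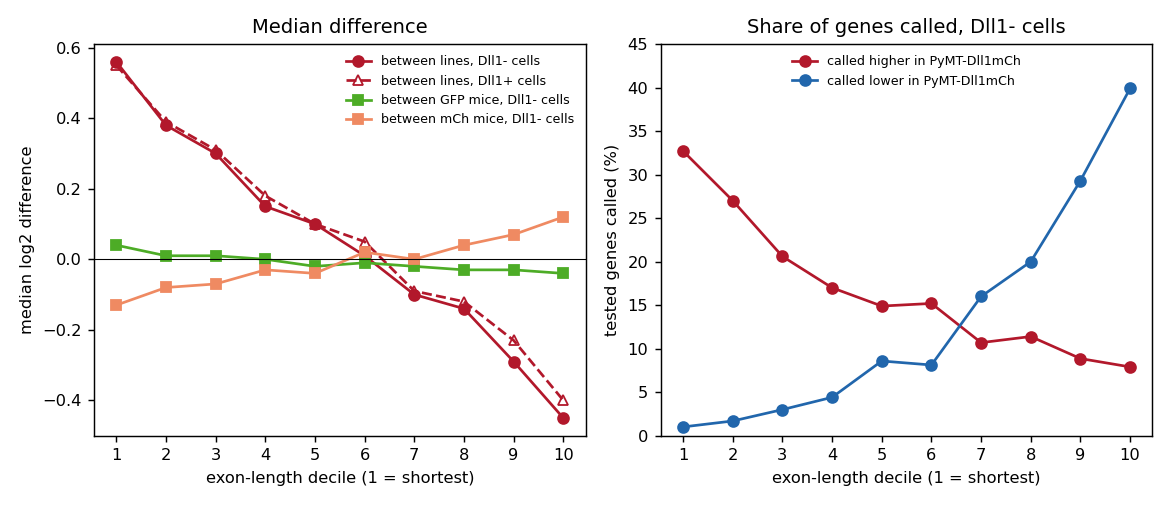
Left, median log2 difference by exon-length decile of protein-coding genes between the lines in Dll1- and Dll1+ cells and between the 2 mice of each line. Right, share of tested genes in each decile called higher or lower in PyMT-Dll1mCh Dll1- cells. The difference between lines ran from 0.56 in the shortest to -0.45 in the longest genes, and the share called lower went from 1.02% to 39.9%.

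Proliferation and metabolism differed in part, to be read against 14.5% higher and 13.8% lower over all genes. Of 43 S phase genes 14 were higher and 0 lower, and of 54 G2/M genes 23 were higher and 2 lower, with medians of 0.54 and 0.55. Birc5, survivin of the mitotic spindle, was at 23.4 and 23.04 against 53.7 and 46.9 CPM (log2 fold change 1.12, SE 0.13, adjusted p = 0.0153), while G2e3 was lower by -1.41 (adjusted p = 0.0153) and the proliferation marker gene Mki67 had a value of -0.11 (adjusted p = 0.630). Adjusted for length, 17 S phase and 29 G2/M genes were higher. Of 44 hypoxia and glycolysis genes 12 were higher and 2 lower, with the glycolytic Pgk1 at 141 and 146 against 301 and 310 CPM (log2 fold change 1.09, SE 0.10, adjusted p = 0.0152). Of 37 immediate early and dissociation genes 2 were higher and 6 lower, so that the share lower was near that over all genes. Among the 6 were the heat shock genes Hsph1 at -1.29 and Dnaja1 at -1.11 (adjusted p = 0.0152 and 0.0188).

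Of 47 NF-kB target genes 16 were higher and 3 lower, against 14.5% and 13.8% over all genes, with a median of 0.49. Il6, an inflammatory cytokine that fibroblasts and macrophages make, was at 1.6 and 1.53 CPM in PyMT-Dll1GFP and 23.1 and 70.1 CPM in PyMT-Dll1mCh libraries (log2 fold change 4.89, SE 0.65, adjusted p = 0.0176), and Il1b at 4.98 and 4.23 against 19.1 and 28.2 CPM (log2 fold change 2.36, SE 0.26, adjusted p = 0.0153). The macrophage and fibroblast lists moved the same way, and their part in these values was not tested. Of 44 interferon-stimulated genes 8 were higher and 3 lower, with Isg15 at 11.01 and 9.64 against 27.4 and 25.1 CPM (log2 fold change 1.35, SE 0.15, adjusted p = 0.0153) and the RNA sensor genes Ddx58 and Ifih1 lower by -0.59 and -0.42. The share higher was near the 14.5% over all genes, and with the length adjustment 7 were higher and 0 lower, so that Ddx58 and Ifih1 did not pass.

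Growth factor pathways held members of both directions, to be read against 14.5% higher and 13.8% lower over all genes. Of 42 Wnt pathway genes tested 10 were higher and 8 lower, and 8 and 5 with the length adjustment. Wnt11, a secreted ligand, was at 0.975 and 1.07 CPM against 6.93 and 14.1 CPM (log2 fold change 3.36, SE 0.45, adjusted p = 0.0173), and the coreceptor gene Lrp6 was at 166 and 157 against 80.0 and 92.6 CPM (log2 fold change -0.90, SE 0.12, adjusted p = 0.0173), with a length-adjusted value of -0.37 that did not pass (adjusted p = 0.0666). Of 36 TGF-beta and BMP genes 10 were higher and 3 lower, and 9 and 0 with the length adjustment, with the ligand gene Bmp7 at 1.81 and 1.46 against 15.2 and 9.58 CPM (log2 fold change 2.92, SE 0.33, adjusted p = 0.0156). Among 23 genes of the EGF family, 2 were higher and 3 lower, the receptor gene Erbb3 at -0.89 (adjusted p = 0.0161) and Erbb4 at -1.89 (adjusted p = 0.0189) among the latter. Of the metabolic lists, 6 of 26 cholesterol synthesis genes were higher and 0 lower, and 1 of 25 fatty acid synthesis genes was higher and 4 lower, or 1 and 1 with the length adjustment. Of the stress lists, 1 gene was higher and 1 lower of 30 genes of the integrated stress and unfolded protein responses, 3 were higher and 2 lower of 25 p53 targets, and 4 higher and 1 lower of 24 antioxidant genes. Of 49 histone genes 2 were higher and 1 lower.

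Single genes reached far larger differences. Among called protein-coding genes whose mean reached 1 CPM, the 10 highest were Gm4070, Dlk1, Vtn, Inmt, Has1, Scg3, Myoc, Ptgis, Higd1b and Gm2564. Apart from Has1, each had between 0 and 9 counts in either PyMT-Dll1GFP library, with 2 and 5 for Vtn. The size and rank of their differences thus rest on few counts. Dlk1, an imprinted, Delta-like transmembrane protein, had 2 counts in PyMT-Dll1GFP and 705 in PyMT-Dll1mCh libraries, a ratio of 131 with a 95% counting interval from 36.1 to 1080. Has1, a hyaluronan synthase, was at 0.627 and 1.49 against 29.0 and 156 CPM (log2 fold change 6.44, SE 1.10, adjusted p = 0.0229), and Vtn, vitronectin, at 0.0697 and 0.178 against 9.10 and 17.8 CPM (log2 fold change 6.74, SE 0.62, adjusted p = 0.0152). The 10 lowest were Sprr2f, Muc16, Dynlt1c, Muc4, Gm44790, Gm11549, Slc5a7, Pclo, Olfr344 and Olfr839-ps1. Of these Muc4, a membrane mucin of epithelia, was the most abundant, at 60.5 and 60.2 CPM in PyMT-Dll1GFP and 4.68 and 11.6 CPM in PyMT-Dll1mCh libraries (log2 fold change -2.92, SE 0.46, adjusted p = 0.0209). The other 9 of the lowest stayed under 10 CPM in all 4 libraries.

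Imprinted genes were higher in 9 of 25 and lower in 3, or 9 and 0 with the length adjustment. Over all genes 14.5% were higher and 13.8% lower, or 12.3% and 8.1% with the length adjustment. H19, a noncoding RNA, was at 13.2 and 9.56 against 60.7 and 51.3 CPM (log2 fold change 2.30, SE 0.21, adjusted p = 0.0152). Its neighbor Igf2, a growth factor gene, stood at 0.209 and 0.249 against 2.64 and 3.55 CPM (log2 fold change 3.74, SE 0.39, adjusted p = 0.0152). The long noncoding Kcnq1ot1 was lower by -1.77 (adjusted p = 0.0152), but by -0.48 with the length adjustment, which did not pass (adjusted p = 0.104). Xist, the long RNA that silences an X chromosome in female cells, was at 1406 and 1552 against 272 and 269 CPM (log2 fold change -2.45, SE 0.14, adjusted p = 0.0151), and at -1.80 with the length adjustment. It was thus high in all 4 libraries, with the lines well apart.

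Genes known to vary between mouse strains gave no common direction. Of 11 tested, H2-Ea-ps, Raet1d and Ifi202b were higher and Wdfy1 lower, against 14.5% higher and 13.8% lower over all genes. With the length adjustment Raet1d (adjusted p = 0.0527) and Ifi202b (adjusted p = 0.0648) did not pass. H2-Ea-ps, the E-alpha pseudogene, was at 0.244 and 0.213 against 1.58 and 2.01 CPM, together with the rest of MHC class II, and Ifi202b was uneven in PyMT-Dll1mCh mice, at 3.48 and 22.5 CPM against 0.801 and 0.427 CPM. Nnt, which carries a deletion in some C57BL/6 strains, had overlapping groups, at 9.61 and 8.96 against 10.4 and 8.74 CPM (log2 fold change 0.04, SE 0.19, adjusted p = 0.884). In all, 11 genes whose mean over the 4 libraries reached 1 CPM had 0 counts in both libraries of one line, 7 in PyMT-Dll1GFP and 4 in PyMT-Dll1mCh, and 6 of them also had 0 counts in the Dll1+ libraries of that line. They were mostly pseudogenes and noncoding RNAs, whose reads can be shared with near-identical copies: Gm2981, a processed pseudogene, had 116 and 152 counts in PyMT-Dll1GFP and 0 in all 4 PyMT-Dll1mCh libraries. Across chromosomes, called shares ran from 23% to 32.4% on the autosomes, with 26.5% on chromosome 17, which holds Dll1.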

How the data were processed

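RNA of sorted, lineage-negative tumor cells was sequenced from TruSeq Stranded libraries. Quantification by the authors used salmon with the M20 release of GENCODE (build GRCm38.p6), tximport gave gene values, and the table was deposited as estimated counts in whole numbers, not normalized; the tximport scaling is not given in the sources used here. Of 53697 genes, 53668 matched the GENCODE M21 annotation used for symbols, exon length and coordinates. The 4 Dll1- libraries were fitted with edgeR 4.0.16 in R 4.3.3 (TMM, filterByExpr by group, robust quasi-likelihood F test, Benjamini-Hochberg over all tested genes, threshold 0.05), with the reporter line as the only term; the study's own model holds Dll1 status and mouse. How far the difference between lines itself differed between Dll1- and Dll1+ cells was fitted over 8 libraries with the mouse as a block. The SE is the size of the log2 fold change over the square root of F. Depth was 27301396 to 123907626 counts, and floors and intervals cover counting error only. The fits were tested on simulated counts with known changes. The members and gene lists were chosen with earlier results of these data known. Genes named were Dll1, called genes within 500 kb of it, the 10 highest and 10 lowest called protein-coding genes whose mean reached 1 CPM, up to 4 called members of each list with the lowest p, and all strain, sex and sort markers; other list members and defining markers were named after their values were seen, as were the genes with 0 counts in one line. Alternatives were RLE factors, total counts, DESeq2 1.42.0, other filters, all 8 libraries, a replicate block, thinning to 27301396 counts and leaving out each library; the length offsets and TMM without marker genes were added after seeing the data. Results for a few genes are not reported here.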

Additional observations from a re-analysis of the deposited data

Results flagged for a closer look

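For 9 of the genes named by rule, the log2 difference between PyMT-Dll1mCh and PyMT-Dll1GFP mice was itself larger in Dll1- than in Dll1+ cells, by a test within mice over 8 libraries with edgeR. The pericyte genes Vtn, Rgs5 and Rgs4 had differences of 5.12, 3.14 and 2.74 (adjusted p = 0.0472, 0.0151 and 0.0472). The macrophage genes Csf1r, C1qb, C1qc and Lyz2 had differences of 1.34, 1.30, 1.30 and 1.30 (adjusted p from 0.0271 to 0.0472), and Cd74 of 1.17 (adjusted p = 0.0472). Gm4070 had a fitted difference of 9.62 (adjusted p = 0.0480), which is no bound since it had 0 counts in both PyMT-Dll1GFP Dll1- libraries. All 9 were named among genes called higher in PyMT-Dll1mCh Dll1- cells. Their groups there did not overlap, as held for all 5102 called genes and for 12953 of the 18018 genes tested. Over all genes of the test within mice, 0.227% were called in either direction.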

How the results depend on the processing

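The count of 5102 genes stayed within 1.5 times under RLE factors (5127), total counts (5025), DESeq2 (5915), no filter (5894), a minimum of 10 counts (4418), all 8 libraries (6922), thinning (4996), TMM without marker genes (5093), length offsets (3672) and the replicate block (4179); the test against 1.5-fold gave 1349, and length offsets gave 1459 lower genes. The share of calls that were higher was 51.1%, 43.3% with total counts and 62.5% with no filter. Leaving out 1 library gave 0 to 7670 genes in all, 0 to 4321 higher, 0 to 3349 lower, 0 to 8 near Dll1, and 0 to 19 pericyte, 0 to 26 fibroblast, 0 to 24 endothelial, 0 to 24 macrophage, 0 to 67 ribosomal and 0 to 75 respiratory chain genes, with 1.62 to 2.47 for Dll1; each 0 came without a PyMT-Dll1GFP library, where the lone sample is assumed to vary like the other line's. With no filter 1 fibroblast gene was called. Ribosomal calls were 36 with total counts, 36 with the replicate block and 20 with length offsets, and respiratory chain calls 25, 27 and 19. The replicate numbers mark different mice, and deviations of same-numbered libraries correlated at 0.10 over genes, so the block pairs only numbers. The difference between Dll1- and Dll1+ cells was called for 13 genes with RLE factors, 1143 with no filter, 547 with DESeq2, 0 with no replicate block and 3 to 787 without 1 mouse; the cause was not tested. Of 2630 values of 190 named genes over 14 settings, 17 changed sign: Nnt with total counts (-0.02), thinning (-0.04), and without PyMT-Dll1GFP mouse 2 (-0.01) or PyMT-Dll1mCh mouse 1 (-0.06); Trim12a with total counts (-0.05), thinning (-0.02), and without PyMT-Dll1GFP mouse 2 (-0.09) or PyMT-Dll1mCh mouse 2 (-0.04); Epcam with no filter (0.05) and without PyMT-Dll1GFP mouse 2 (0.01) or PyMT-Dll1mCh mouse 2 (0.03); Trim30d (-0.10) and H60b (0.12) without PyMT-Dll1mCh mouse 2; and Glo1 (0.23), Entpd4 (0.07), Ide (0.00) and Kdm5d (0.33) with length offsets. Without 1 library, values ran up to 0.18 for Nnt and 0.15 for Trim12a, down to -0.08 for Epcam, up to 0.78 for Trim30d and down to -2.17 for H60b. Depth limits genes under 0.0242 to 0.110 CPM.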
